A study of Mus musculus with 2 samples.

Results

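The cells described here are thymic epithelial cells of the medullary type that held many transcripts of the replicative helicase genes Mcm2 to Mcm7 and few of the mitotic genes Mki67 and Top2a. They were selected on measured counts of unique molecular identifiers (UMIs, each marking 1 captured RNA molecule). A cell was kept when it had more than 2000 and fewer than 7500 detected genes and under 15% mitochondrial UMIs. A kept cell was a member when, per 10000 of its UMIs, Mcm2 to Mcm7 summed to at least 6, Mki67 and Top2a to under 4, the cortical genes Psmb11 and Prss16 to under 15, and the tuft genes Avil and Trpm5 to under 5. The rule gave 294 of 8303 kept cells, 83 of 3233 in the control library and 211 of 5070 in the irradiated library. They are called Mcm-high cells below, because the values chose them. Some S-phase transcripts, given below, were also lower in them than in cells with more Mki67 and Top2a.

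Thymic epithelial cells (TECs) of C57BL/6 mice were profiled by droplet single-cell RNA sequencing in 2 libraries, 1 per condition, each of cells pooled from 3 female mice. The irradiated mice had been given 5.5 Gy of whole-body γ-rays when 7 weeks old, and their thymi were taken 15 days afterwards, at 9 weeks, beside controls that were not irradiated. The cells had been sorted for EpCAM and against CD45 and TER119, which leaves epithelium and should remove most blood cells. The control library held 58185309 UMIs in 4937 barcodes and the irradiated library 82201657 UMIs in 7167 barcodes. The conditions were assigned by the names of the deposited files, and the labels of the 2 samples say the opposite. The library labelled irradiated held 4937 barcodes in all, which is too few for the irradiated cells of the study after its filter. Under the labels, every direction between the irradiated and the control library would reverse, and contrasts between classes of cells would not. The libraries shared 17 barcodes, of which 1 belonged to an Mcm-high cell. With 1 library per condition there is no replicate check and no test between conditions. Intervals are exact 95% Clopper-Pearson intervals for shares of cells and exact 95% Poisson intervals for summed UMIs. They cover counting error only, not the differences between mice, sorts or droplets.

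Before a cell copies its DNA, the origin recognition complex, Cdc6 and Cdt1 load the Mcm2 to Mcm7 helicase onto replication origins, a step called licensing. Cyclin D and cyclin E kinases release E2F transcription factors, which switch on the Mcm genes and much of the replication machinery at the start of S phase, while Mki67 and Top2a transcripts build up later and peak around G2 and mitosis. The medulla contains dividing cells, among them transit-amplifying cells that give rise to Aire-expressing cells, and Ccl21a-expressing cells of keratin 5 and keratin 14 type.

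Mcm-high cells made up 2.57% of the kept control cells (interval 2.05% to 3.17%) and 4.16% of the kept irradiated cells (3.63% to 4.75%). The share was 1.62-fold higher in the irradiated library, a log2 ratio of 0.70 with a range of 0.19 to 1.21 from the opposite ends of both intervals. Medullary-gated cells with Mki67 and Top2a at or above the limit, called G2/M cells, were 186 and 482 cells and were 1.65-fold more frequent in the irradiated library. The G2/M class also held many cells past the Mcm limit, 80 of the control and 178 of the irradiated library, or 43.0% and 36.9% of the class, so that a high Mcm sum is not particular to the members. Its sum of replication genes, given below, was also higher than that of the members. The name G2/M therefore stands for the limit only, and cells in S phase were not told apart from those in G2 or mitosis within it. The remaining medullary-gated cells, called nondividing because they lay under both limits, were 0.92 times as frequent. The 2 cycling classes stood in like proportion in both libraries. Mcm-high cells were 30.9% of the cycling control cells (25.4% to 36.8%) and 30.4% of the cycling irradiated cells (27.0% to 34.02%). A share of cells says nothing of cell numbers per thymus.

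The limit on Mcm2 to Mcm7 removed the most cells. In the control library, 167 kept cells passed the limit on Mcm2 to Mcm7, 86 of them also passed that on Mki67 and Top2a, and 83 also passed the cortical limit. In the irradiated library the numbers were 394, 212 and 211. The tuft limit removed none. The Mcm sum ran from 6.00 to 18.9 per 10000 UMIs in control members, with a median of 9.23, and from 6.01 to 22.7 in irradiated members, with a median of 9.71. The limit lay in a continuous range of values. In the control library 15 members had a sum of 6 to 7, and 23 cells just outside had 5 to 6. Median Pcna, which the rule did not use, was 1.35 per 10000 UMIs in the former and 1.82 in the latter. In the irradiated library 39 members lay just inside and 38 cells just outside, with median Pcna of 1.63 and 1.17. At the limit of Mki67 and Top2a, 13 control and 18 irradiated members had 3 to 4, and 9 and 23 cells just outside had 4 to 5.

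**Figure D1:**
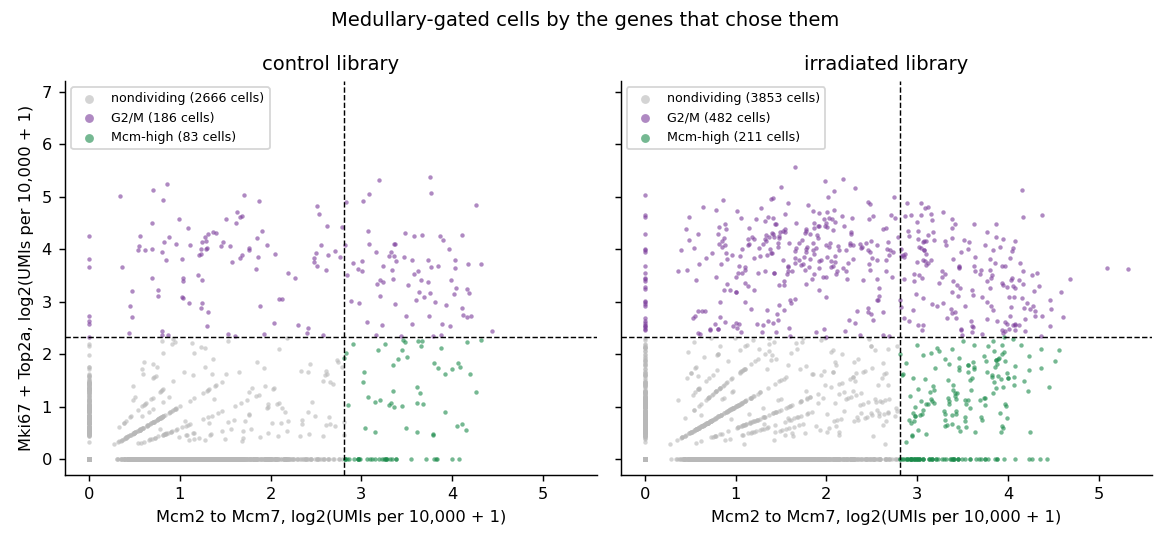
Medullary-gated cells of the control library (left) and the irradiated library (right), each point a cell. The horizontal axis is the sum of Mcm2 to Mcm7 and the vertical axis the sum of Mki67 and Top2a, both as log2 of UMIs per 10000 plus 1, and dashed lines mark the limits of 6 and 4. The 83 and 211 Mcm-high cells fill the lower right and run on without a gap into the nondividing cells on their left and the G2/M cells above.

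Mcm-high cells were deeper than nondividing cells. Their median was 21821 UMIs for control and 17112 for irradiated members, against 12689.5 and 11742 in nondividing cells and 29605.5 and 23791.5 in G2/M cells. No doublet caller was used, and the upper limit on detected genes was the only bound on doublets. The epithelial genes Epcam, Krt8, Krt18 and Cdh1 were all found, at 31.0 summed UMIs per 10000 for the control members and 35.4 for the irradiated ones, and every member held at least 1 UMI of them. The rule bounded the markers of the rejected types. Psmb11 had 3 UMIs over all control members and 1 over all irradiated members, and Avil and Trpm5 had 2 each in the control members and none in the irradiated members. Prss16 was more frequent, with 45 and 111 UMIs, found in 33.7% of control and 39.3% of irradiated members.

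Genes listed for other cell types were low in sum but found in many members. All 18 genes of a thymocyte list summed to 1.25 UMIs per 10000 in control members and 0.42 in irradiated members. In each library 16 of them were found and 2 were at 0, Cd8b1 and Rag2 in the control and Ptcra and Rag2 in the irradiated members. A single control cell held 60.5% of that sum, and the most abundant gene was Cd3g in the control and Trbc2 in the irradiated members. At least 1 UMI of the list was found in 30 control and 52 irradiated members, and at least 5 per 10000 in 2 members of each library. A list of 14 myeloid, B cell and red cell genes summed to 1.83 and 0.849, led by Lyz2 with 263 of 326 control and 285 of 322 irradiated UMIs, with Csf1r, Itgax, Siglech and Hba-a2 at 0 in both libraries. A single control cell held 57.1% of that sum. Hba-a1 had 30 control and 5 irradiated UMIs and Cd68 7 and 20. A list of 13 stromal and endothelial genes summed to 1.98 and 1.26, led by Dcn with 327 of 354 control and 370 of 476 irradiated UMIs, with Kdr and Tie1 at 0 in both, and was found in 42 control and 96 irradiated members. Col1a1 had 2 control and 54 irradiated UMIs and Pdgfrb 11 and 13. A single control cell held 34.2% of the stromal and endothelial sum, and a single irradiated cell 12.4%. All 3 sums were higher in the control members, but sums without these single cells were not compared. The sums were not particular to the members. In nondividing cells the thymocyte, myeloid and stromal sums were 0.979 and 1.00, 4.63 and 4.16, and 4.23 and 2.65. In G2/M cells they were 4.65 and 3.81, 1.40 and 1.55, and 0.581 and 0.652. Without the 2 members of each library that held at least 5 thymocyte UMIs per 10000, which left 81 and 209 members, the log2 ratios of irradiated over control were 0.46 for Ccl21a, 0.58 for Krt5 and -0.26 for Aire, close to those over all members given below. The part of the other 2 lists in the differences between libraries was not tested. A list of 8 further cortical genes, several of which medullary cells also express, summed to 10.3 and 10.97 in members, led by Ctsl at 4.75 and 6.67 against 12.1 and 14.5 in nondividing cells, with Tbata at 3.53 and 2.40 and Foxn1, the master regulator of TECs, at 0.49 and 0.55. A list of 9 further tuft genes summed to 0.606 and 0.712, led by Dclk1, with 11 and 26 UMIs of Pou2f3 and 7 and 18 of Gng13.

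The levels of the 6 genes whose sum chose the cells are a description only. Mcm3, on mouse chromosome 1 at chr1:20802968-20820312 of GRCm38, was at 1.91 UMIs per 10000 for the control members and 1.97 for the irradiated ones, against 0.09 and 0.10 in nondividing cells. Mcm5 was at 1.68 and 1.45, Mcm6 at 1.93 and 2.05, Mcm2 at 1.45 and 1.61, Mcm4 at 1.05 and 1.22, and Mcm7 at 2.37 and 2.15. Pcna, the sliding clamp of the replication fork at chr2:132249162-132253314, was at 2.50 in control and 2.52 in irradiated members, with a log2 ratio of 0.01 (-0.22 to 0.24). Its level was 0.58 and 0.57 in nondividing cells and 2.78 and 2.18 in G2/M cells. Pcna thus marked both cycling classes. After each cell was thinned at random to 4000 UMIs, 62.7% of control and 51.7% of irradiated members held a Pcna UMI, against 20.3% in each nondividing class. The shares were 48.4% and 52.3% in G2/M cells, 16.7% and 20.6% in cortical-gated cells and 21.7% and 29.2% in tuft-gated cells.

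The promoters of these genes are shown because E2F sites are the textbook route by which they are switched on together. Promoters of 300 bases, 250 before and 50 after each gene's start, were taken from RefSeq on GRCm38.p6 and searched on both strands for the E2F-type words TTTGGCGC, TTTCCCGC, TTTGCCGC and TTTCGCGC, which can overlap each other, and for TTTGAA, the core of the CHR element of mitotic genes. Of 27025 genes in the table, 2.60% held an E2F-type word and 20.2% held TTTGAA. Of the Mcm genes 5 had an entry, and 4 of them, Mcm3, Mcm5, Mcm6 and Mcm7, held an E2F-type word. A list of 23 licensing genes had entries for 18, of which 8 (44.4%) held one, and a list of 27 fork genes had entries for 21, of which 7 (33.3%) did. Of 18 nucleotide genes with an entry 1 (5.56%) held one, and of 5366 genes with an entry and at least 100 UMIs in Mcm-high cells 5.68% did. Of 40 G2 and mitosis genes 32 had entries, of which 1 held an E2F-type word and 24 (75%) held TTTGAA. The Pcna promoter held none of the 4 words in this window. Of the 10 genes outside the rule that were highest over nondividing cells, 5 held one, namely Hells, Pclaf, Zfp367, Dtl and Cdt1, while E2f1, Chek1, Timeless, Ung and Fignl1 did not. A match is a description of letters and not a measured site. The 180 bases before the start are given for 2 genes of the rule and for Hells and Dtl, 2 of those 5 genes. Capitals mark the matches, joined where matches on the 2 strands overlap, and each sequence reads 5′ to 3′ along the gene's strand.
Mcm5, chr8:75109329-75109508, plus strand: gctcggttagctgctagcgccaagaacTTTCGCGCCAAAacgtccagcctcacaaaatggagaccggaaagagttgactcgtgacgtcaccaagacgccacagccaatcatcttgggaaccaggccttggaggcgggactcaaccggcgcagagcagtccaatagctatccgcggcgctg
Mcm6, chr1:128359706-128359885, minus strand: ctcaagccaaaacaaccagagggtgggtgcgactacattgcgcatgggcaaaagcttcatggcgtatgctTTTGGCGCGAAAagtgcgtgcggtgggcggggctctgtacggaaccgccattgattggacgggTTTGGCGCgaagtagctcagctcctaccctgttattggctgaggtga
Hells, chr19:38930810-38930989, plus strand: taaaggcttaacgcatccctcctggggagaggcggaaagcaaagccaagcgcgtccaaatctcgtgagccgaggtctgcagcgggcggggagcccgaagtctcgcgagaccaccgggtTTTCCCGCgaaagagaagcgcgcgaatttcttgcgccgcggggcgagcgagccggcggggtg
Dtl, chr1:191575545-191575724, minus strand: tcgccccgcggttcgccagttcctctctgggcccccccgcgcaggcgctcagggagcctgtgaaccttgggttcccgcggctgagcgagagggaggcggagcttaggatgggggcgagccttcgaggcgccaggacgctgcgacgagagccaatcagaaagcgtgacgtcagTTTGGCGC

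Beyond the genes of the rule, genes of origin licensing, the replication fork, nucleotide synthesis and chromatin assembly were mostly higher in Mcm-high than in nondividing cells. Since the cells were chosen by genes that move with these, the values describe the class and test nothing. Of 14018 genes with at least 100 UMIs in the 2 classes in each library, 358 (2.55%) were at least 2-fold higher in Mcm-high than in nondividing cells in both libraries, and 2332 (16.6%) were at least 2-fold lower in both. The 10 genes with the highest ratio outside the rule were E2f1, Chek1, Timeless, Hells, Ung, Pclaf, Zfp367, Dtl, Fignl1 and Cdt1. E2f1, the transcription factor that opens S phase, was at 0.42 and 0.43 UMIs per 10000 in control and irradiated members and at 0.01 and 0.02 in nondividing cells. Cdt1, the loader of the helicase, was at 0.73 and 0.61 against 0.04 in each nondividing class, and Chek1, the kinase that guards stalled forks, at 0.43 and 0.52 against 0.02 and 0.03. Hells, a chromatin remodeller of replicating cells, was at 1.35 and 1.28 against 0.06 and 0.07.

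By list, 17 of 20 licensing genes that passed the minimum were at least 2-fold higher than in nondividing cells in both libraries, as were 23 of 27 fork genes, 16 of 19 genes of nucleotide synthesis and 11 of 12 genes of chromatin assembly. Of 34 DNA repair genes 20 were, and of 24 genes of ribosome biogenesis 11 were. The G2 and mitosis list had 10 of 36. In the other direction, 9 of 13 genes of cells past the Aire stage were at least 2-fold lower in both libraries, with median log2 ratios of -3.13 in the control and -1.78 in the irradiated library. Of 16 G1 regulators 4 were at least 2-fold higher and 3 at least 2-fold lower in both libraries, with median log2 ratios of 0.02 in the control and 0.07 in the irradiated library. The D cyclins of that list were high. Ccnd1 and Ccnd2, which carry growth signals through G1, were at 3.80 and 4.00 and at 15.3 and 14.1 UMIs per 10000 in control and irradiated members. In nondividing cells Ccnd1 was at 0.89 and 1.18 and Ccnd2 at 4.15 and 5.02.

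Few replication genes were 2-fold apart between Mcm-high and G2/M cells in both libraries. Of 22 licensing genes 1 was at least 2-fold higher in Mcm-high cells and 2 were lower. For 27 fork genes these counts were 1 and 0, for 19 nucleotide genes 1 and 3, and for 13 chromatin genes 0 and 1. Of 15 G1 regulators 0 were higher and 4 lower. The D cyclins Ccnd1 and Ccnd2 were higher, but not 2-fold in both libraries. Single genes are named below. Of 7695 genes with enough UMIs, 81 (1.05%) were at least 2-fold higher and 219 (2.85%) at least 2-fold lower in Mcm-high than in G2/M cells in both libraries. Ung, which removes uracil from DNA, was at 0.98 and 0.97 UMIs per 10000 in members and at 0.36 and 0.27 in G2/M cells. Timeless, a fork protection factor, was at 0.57 and 0.56 against 0.21 and 0.22, and Ccnd1 was at 3.80 and 4.00 against 1.55 and 2.13. Conversely Rrm2, the small subunit of ribonucleotide reductase, was at 0.96 and 0.77 against 2.17 and 1.81, Tyms, the thymidylate synthase, at 0.95 and 1.01 against 2.42 and 2.31, and Hmgb2 at 4.28 and 3.70 against 17.4 and 15.5. All 39 G2 and mitosis genes that passed the minimum were at least 2-fold lower in both libraries, a contrast that the limit on Mki67 and Top2a itself had set. Ube2c, which drives the exit from mitosis, was at 0.14 and 0.18 in members and 6.01 and 7.43 in G2/M cells.

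Transcripts of the replication-dependent histones, which are made during S phase, were mostly lower in Mcm-high than in G2/M cells. Hist1h1b was at 0.24 UMIs per 10000 for the control members and 0.13 for the irradiated ones, against 3.81 and 3.94 in G2/M cells and 0.04 and 0.03 in nondividing cells. Hist1h2ae was at 0.10 and 0.09, against 1.86 and 1.94 in G2/M and 0.07 and 0.08 in nondividing cells. These 2 genes were thus highest in the class above the limit on Mki67 and Top2a. Hist1h1b was still higher in members than in nondividing cells, while Hist1h2ae was near the same level in both. Histone messages of this kind mostly lack a poly(A) tail, so droplet libraries count only part of them. Of 67 histone genes listed, 32 were at 0 in the control members and 28 in the irradiated members. After each cell was thinned to 4000 UMIs, the mean sum of the 67 genes was 1.17 and 0.782 UMIs in members, 2.02 and 1.88 in nondividing cells and 5.5 and 5.76 in G2/M cells. The nondividing sum was led by Hist1h2bc, at 2.09 and 1.88 per 10000 against 0.83 and 0.63 in members. The 67 genes were taken by symbol, so their sum does not measure S phase alone. Hist1h4i was at 0.19 and 0.28 and Hist3h2a at 0.31 and 0.21 in members.

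**Figure D2:**
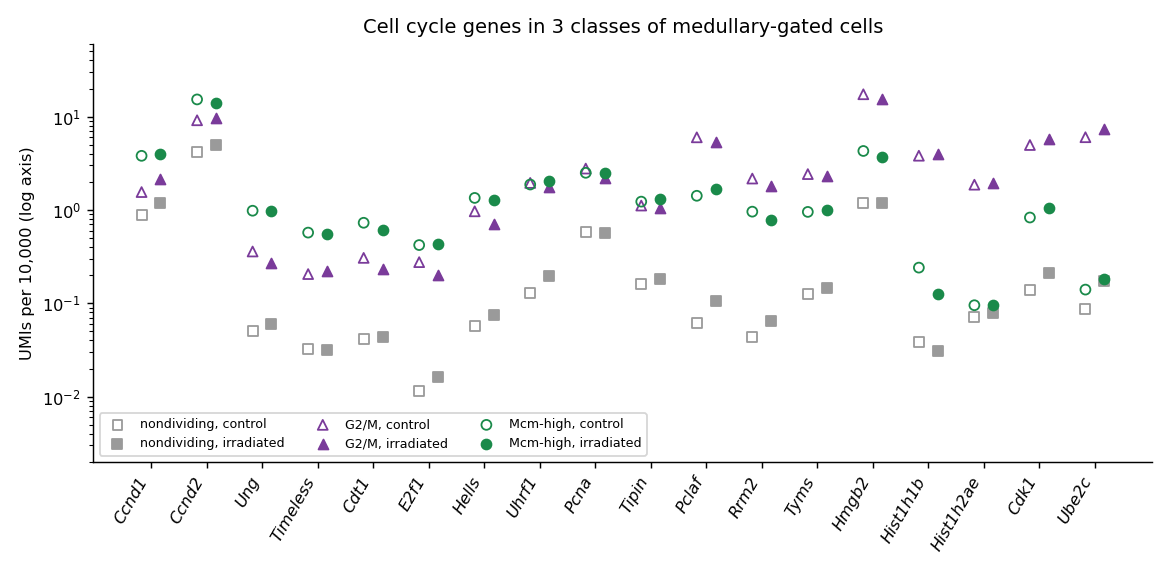
Levels of 18 cell cycle genes as summed UMIs per 10000 UMIs of a class (vertical log axis) in nondividing (squares), Mcm-high (circles) and G2/M cells (triangles) of the control (open) and irradiated (filled) library. The D cyclins, Ung, Timeless and Cdt1 are highest in Mcm-high cells, Pcna and Uhrf1 are about as high as in G2/M cells, and Hist1h1b is at 0.24 and 0.13, far below 3.81 and 3.94 in G2/M cells.

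Sums over lists in cells of equal depth placed Mcm-high cells between nondividing and G2/M cells. After thinning to 4000 UMIs, the sum over 82 genes of licensing, fork, nucleotide synthesis and chromatin assembly had a median of 30 UMIs in control members (quartiles 22 and 38) and 29 in irradiated members (20 and 41). The medians were 8 and 9 in nondividing cells and 49 and 47 in G2/M cells. The sum over 40 G2 and mitosis genes had a median of 2 UMIs in the members of each library, against 0 in each nondividing class and 20 and 22 in G2/M cells. The highest member held 35. The highest nondividing cell held 44 in the control and 48 in the irradiated library, so that the name of this class stands for the limits only. The S-phase sum in single members ran from 6 to 70 in the control and from 1 to 71 in the irradiated library, so that some members overlapped with nondividing cells.

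**Figure D3:**
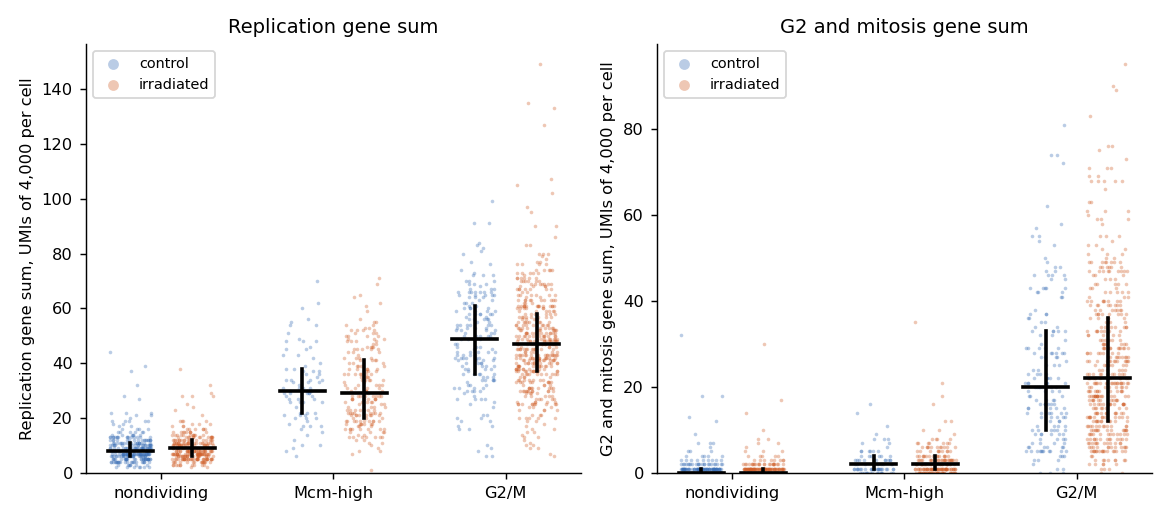
Sums of replication genes (left) and of G2 and mitosis genes (right) in cells thinned to 4000 UMIs, as UMIs per cell, for the control and irradiated library. Each point is a cell, with 300 nondividing cells drawn at random per library, horizontal bars are medians over all cells and thick lines run between the quartiles. Mcm-high cells lie between the other classes on the left, with medians of 30 and 29, and near the nondividing cells on the right, with medians of 2.

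The members differed in their Mki67 and Top2a, values that the rule had bounded, and the bins that follow are a description. Mki67 and Top2a were both at 0 in 33 control and 71 irradiated members, above 0 and under 2 UMIs per 10000 in 25 and 88, and from 2 to under 4 in 25 and 52. Across these 3 bins Uhrf1, which maintains DNA methylation at the fork, was at 0.695, 1.72 and 3.03 per 10000 in the control and 0.927, 1.96 and 3.29 in the irradiated library. Cdc6 was at 0.0376, 0.193 and 0.526 and at 0.0509, 0.222 and 0.627. Pcna was at 1.63, 2.23 and 3.51 and at 1.69, 2.35 and 3.57. Ccnd1 had no such order, with 4.13, 3.26 and 4.06 in the control and 4.47, 4.05 and 3.47 in the irradiated library. Krt5 and Ccl21a had the opposite order. Krt5 was at 14.1, 10.3 and 7.50 in the control and 21.8, 15.9 and 10.2 in the irradiated library, and Ccl21a at 44.7, 19.6 and 14.7 and at 50.7, 34.2 and 23.0. Krt14 had that order in the irradiated library, at 24.7, 16.8 and 13.6, but not in the control, at 11.3, 13.8 and 7.92. The median Mcm sum was 8.37, 10.2 and 11.3 in the control and 7.97, 9.73 and 12.6 in the irradiated library. The bins differ in depth, with medians of 15287, 23448 and 24984 UMIs in the control and 13149, 19091.5 and 20381 in the irradiated library, and a cell of low depth more readily has 0 UMIs of Mki67 and Top2a.

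Mcm-high cells held both of the main medullary identities, mostly in separate cells. Aire, the regulator of tissue-restricted antigens, was at 3.81 UMIs per 10000 (3.53 to 4.10) for the control members and 3.29 (3.11 to 3.47) for the irradiated ones. Over single members its median was 1.26 in the control, with a highest value of 19.2, and 0.531 in the irradiated library, with a highest value of 21.9. Ccl21a, the chemokine that draws T cells into the medulla, had a median of 4.80 and a highest value of 154 in the control and 28.7 and 194 in the irradiated members. The files list Ccl21a under 2 identifiers beside the near-identical Ccl21b and Ccl21c, so its count may hold reads of these copies. After thinning, 48.2% of control members (37.1% to 59.4%) and 34.1% of irradiated members (27.8% to 40.9%) held an Aire UMI, and without thinning 67.5% and 53.1% did. After thinning, 67.7% of control and 57.5% of irradiated G2/M cells and 33.3% and 38.1% of nondividing cells held one. Detection of Aire was thus higher in G2/M cells than in members. Cortical-gated cells, which should lack Aire, gave 4.35% and 4.67% after thinning, with a median of 19735 and 17913 UMIs before it.

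A class with at least 10 Ccl21a UMIs after thinning and no Aire UMI held 30.1% of control members (20.5% to 41.2%) and 48.8% of irradiated members (41.9% to 55.8%). A class with Aire and fewer Ccl21a UMIs held 42.2% (31.4% to 53.5%) and 28.9% (22.9% to 35.5%). Both traits were found together in 6.02% and 5.21%, and neither in 21.7% and 17.1%. Cells with neither trait are so named by the limits after thinning and did not lack these genes. At full depth they held Aire at 1.57 and 1.22 and Ccl21a at 5.07 and 6.76 UMIs per 10000. The log2 ratio of the Ccl21a class was 0.70 with a range of 0.02 to 1.44, and that of the Aire class -0.54 with a range of -1.22 to 0.18. With limits of 5 and 20 Ccl21a UMIs in place of 10, the ratio of the Ccl21a class was 0.54 (-0.06 to 1.201) and 0.58 (-0.23 to 1.48), with ranges that included 0. Few cells lay at the Ccl21a limit, with 1 control and 7 irradiated members at 8 or 9 UMIs and 2 and 8 at 10 or 11. The Aire limit was less sharp, since 15 and 21 members held exactly 1 Aire UMI. As background, 15.2% and 20.6% of cortical-gated cells and 8.70% and 8.07% of tuft-gated cells also held at least 10 Ccl21a UMIs, and the part of free RNA in this was not tested. Counted the same way, whatever their Aire, 36.1% and 54.0% of Mcm-high cells, 13.4% and 19.5% of G2/M cells and 40.3% and 45.7% of nondividing cells did.

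**Figure D4:**
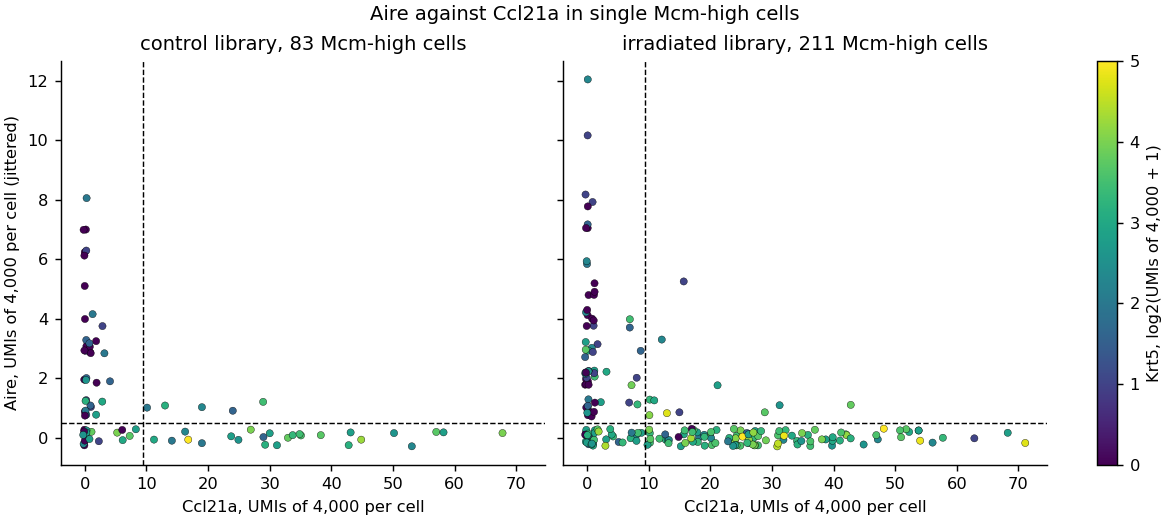
Aire (vertical axis, with a small random shift) against Ccl21a (horizontal axis), both as UMIs of 4000 per cell, in the 83 control and 211 irradiated Mcm-high cells, coloured by Krt5 as log2 of UMIs plus 1. Dashed lines mark the limits of the 4 classes. Cells spread along the 2 axes and few lie between them, and the low right field without Aire holds 30.1% of control and 48.8% of irradiated members.

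The 2 larger classes differed in keratins, class II genes and the D cyclin Ccnd2. Krt5 was at 24.6 and 25.4 UMIs per 10000 in the Ccl21a class of the control and irradiated library and at 3.56 and 5.22 in the Aire class. Krt14 was at 29.9 and 27.9 against 5.14 and 7.15. Cd74, the invariant chain of class II, was at 94.4 and 109 in the Ccl21a class and 189 and 182 in the Aire class. Hdc, which makes histamine, had no UMI in the control Ccl21a class and was at 0.0828 in the irradiated one, against 2.44 and 2.54 in the Aire class. Ccnd2 was at 7.73 and 8.12 against 19.2 and 19.1, whereas Ccnd1 was at 4.23 and 4.24 against 3.18 and 2.81. Uhrf1 was at 0.881 and 1.38 in the Ccl21a class and 1.95 and 2.74 in the Aire class. Mki67 and Top2a were both at 0 in 64% of control and 43.7% of irradiated cells of the Ccl21a class, and in 31.4% and 14.8% of those of the Aire class. Median depths were 17002 and 13992 against 26561 and 22612 UMIs.

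The ratio between libraries within a class was not always that over all members, and the difference was not tested. Over all members Krt5 was at 10.5 in the control and 15.9 in the irradiated library, a log2 ratio of 0.60 (0.50 to 0.70), but within the Ccl21a class the ratio was 0.04 (-0.09 to 0.18). Krt14 was at 10.99 and 18.0 with a log2 ratio of 0.71 (0.61 to 0.81) over all members and -0.10 (-0.22 to 0.03) within the Ccl21a class. In the Aire class the log2 ratios of Krt5 and Krt14 were 0.55 and 0.48 at lower levels, and in cells with neither trait that of Krt5 was 0.51 (0.28 to 0.74). Krt14 had a larger ratio in cells with neither trait, 1.36 (1.08 to 1.65), and in the few cells with both, 1.46 (1.02 to 1.91). Ccl21a itself was at 25.4 and 35.4, a log2 ratio of 0.48 (0.41 to 0.55), over all members, and within the Ccl21a class at 91.8 and 74.0, a ratio of -0.31 (-0.38 to -0.24). In the Aire class Ccl21a was at 1.60 and 3.26, a ratio of 1.02 (0.65 to 1.40). Aire had a log2 ratio of -0.21 (-0.40 to -0.02) over all members and 0.24 (0.04 to 0.44) within the Aire class, where it was at 6.67 and 7.88. The classes were defined by limits on Ccl21a and Aire themselves. The ratios of these 2 genes within a class are therefore bounded by those limits, and nothing is concluded from them. The Ccl21a and Aire ratios over all members depended on the limit of the rule. With an Mcm sum of at least 8, which left 58 and 143 members, the log2 ratio of Ccl21a was -0.03 (-0.11 to 0.05) and that of Aire 0.10 (-0.13 to 0.33), while those of Krt5 and Krt14 were 0.35 and 0.41. Without the 5% of kept cells with the most UMIs the ratios were 0.19 for Ccl21a and -0.07 for Aire. With an Mcm sum of at least 4 that of Ccl21a was 0.09.

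Across all 6705 genes with at least 100 UMIs in the members of both libraries together, 217 (3.24%) were at least 1.5-fold higher and 148 (2.21%) at least 1.5-fold lower in the irradiated members. The median log2 ratio was -0.01. Which direction held more genes depended on the setting. Higher and lower genes numbered 129 and 202 with an Mcm sum of at least 4, and 113 and 125 with at least 8. Without the 5% of kept cells with the most UMIs they numbered 137 and 153. The counts that follow are those of the main setting. Of the 217, 210 were still past 1.5-fold without the highest cell of each library, and of the 148, 98 were. In 7 of the 10 genes with the most extreme ratios, a single cell held over 80% of the UMIs of the higher library. Hba-x had 124 UMIs in 1 control member, Reg3b had 203 of 204 control UMIs in 1 cell, Apoa2 99 of 104 and Fabp7 113 of 118. S100a9 had 88 of 146 control UMIs in 1 cell. The top control cell was the same one for Hba-x, Reg3b, Apoa2 and S100a9, a member with 17802 UMIs. At the other end, Gal had 105 of 109 irradiated UMIs in 1 cell, Pcp4 221 of 230 and Tac1 108 of 128, while Acaa1b had 51 of 99 and Sprr2a3 121 of 302. For those 7 genes the values of the libraries say little of the members as a group.

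Genes of the replication machinery past 1.5-fold were few, as among all genes, of which 3.24% were higher and 2.21% lower. Of 23 licensing genes 17 passed the minimum, of which 0 were 1.5-fold higher and 1 was lower. That gene was Cdk2, a kinase of S-phase entry, at 0.53 UMIs per 10000 in the control and 0.31 in the irradiated members, a log2 ratio of -0.76 (-1.32 to -0.20). None of 26 fork genes, 19 nucleotide genes, 12 chromatin genes, 27 repair genes or 22 ribosome biogenesis genes that passed was beyond 1.5-fold in either direction. Median log2 ratios were 0.01 for the fork, -0.07 for the nucleotide, -0.04 for the chromatin, -0.02 for the repair and -0.15 for the ribosome list, beside -0.01 over all genes. The summed chromatin list, at -0.06, changed sign under 4 alternatives, up to 0.09. In the ribosome list 6 of 22 ranges lay below 0, as did 324 of 6705 over all genes, and the summed list went from -0.16 to -0.04 (-0.09 to 0.01) with an Mcm sum of at least 8. Among the 6 were Npm1, the nucleolar chaperone, at 20.9 in the control and 18.5 in the irradiated members, with a log2 ratio of -0.18 (-0.26 to -0.10), and Nop56 at 1.40 and 1.05 with a ratio of -0.41 (-0.74 to -0.09). Brca1, a factor of recombination repair, was at 0.34 and 0.27, with a range that included 0. Of 11 G1 regulators that passed, 0 were beyond 1.5-fold. Of 40 G2 and mitosis genes only 10 passed, and Cenpf, a kinetochore protein, was lower at 0.30 and 0.14, a log2 ratio of -1.12 (-1.92 to -0.32).

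The most abundant and most changed genes of these lists show the same in single values, each as UMIs per 10000 in control and then irradiated members. Among licensing genes, Slbp, which binds histone messages, was at 2.10 and 2.10, the Cdt1 inhibitor Gmnn at 1.09 and 1.21, Orc6 at 0.91 and 0.97 and the phosphatase Cdc25a at 0.46 and 0.33. The E cyclins that act with Cdk2, Ccne1 and Ccne2, were at 0.21 and 0.17 and at 0.21 and 0.22. The ranges of the ratios of all 6 included 0. At the fork, the clamp loader subunit Rfc2 was at 1.48 and 1.54, Tipin, the partner of Timeless, at 1.23 and 1.30, and the polymerase delta subunits Pold1 and Pold3 at 0.57 and 0.42 and at 0.43 and 0.31. Among nucleotide genes, Dut, which clears dUTP, was at 4.59 and 5.03, Nme1 at 4.73 and 4.399, Dctpp1 at 1.31 and 1.39, and the purine synthesis genes Ppat and Gart at 0.44 and 0.34 and at 0.79 and 0.62. The ranges of all 9 included 0. In the chromatin list the histone variant gene H2afz was at 19.1 and 18.5 and the assembly factor Chaf1a at 0.41 and 0.51, with ranges that included 0. For 2 of 12 chromatin genes the range lay below 0. Hmgn2 was at 3.34 and 2.74 with a log2 ratio of -0.28 (-0.49 to -0.08), and Hmgb2 at 4.28 and 3.70 with a ratio of -0.21 (-0.39 to -0.03). Of the G1 regulators, Cdk4, the kinase of the D cyclins, was at 4.39 and 4.34, Myc at 0.67 and 0.53 and Mycl at 0.20 and 0.28, with ranges that included 0. The same held for Cdk1, the mitotic kinase, at 0.83 and 1.05, for the condensin genes Smc2 and Smc4, at 0.78 and 0.84 and at 0.80 and 0.70, and for the spindle factor Tpx2, at 0.29 and 0.22. It also held for the repair genes Rad50, at 1.07 and 1.09, Topbp1, at 0.95 and 1.13, Rbbp8, at 0.84 and 0.94, and Exo1, at 0.21 and 0.17. In the ribosome list Ncl, or nucleolin, was at 10.3 and 9.63 with a range that included 0, and the helicase gene Ddx21 at 0.70 and 0.50 with a log2 ratio of -0.49 (-0.96 to -0.02). These ranges are wide for the rarer genes, and a range that includes 0 does not show that the libraries were alike.

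Of 32 p53 target genes 19 passed, of which 1 was 1.5-fold higher and 0 were lower, a share near the 3.24% and 2.21% over all genes. The range lay above 0 for 3 of the 19 and below 0 for 0, beside 326 and 324 of 6705 over all genes. The summed list was at 0.14 (0.06 to 0.22), but at 0.04 (-0.06 to 0.14) with Mki67 and Top2a under 2. The gene past 1.5-fold is given next. It was Cdkn1a, the p21 inhibitor of cyclin-dependent kinases, at 0.37 UMIs per 10000 (0.29 to 0.47) for the control members and 0.65 (0.57 to 0.73) for the irradiated ones, a log2 ratio of 0.80 (0.26 to 1.34). The ratio was 1.18 in G2/M cells and 0.59 in nondividing cells, where the levels were 1.75 and 2.63. A Cdkn1a UMI was found in 28.9% of the control and 26.1% of the irradiated members at full depth, and in 9.64% and 9.95% after thinning, and the top control cell held 34.8% of the control UMIs. Within the classes of members the Cdkn1a ratio was -0.02 (-0.93 to 0.93) in the Ccl21a class, 0.43 (-0.34 to 1.21) in the Aire class and 3.71 (1.96 to 5.69) in cells with neither trait, which held 3 control and 73 irradiated UMIs. Over all members its ratio was 0.16 with Mki67 and Top2a under 2, and 1.64 with an Mcm sum of at least 8. Perp, a p53 target of desmosomes, was at 2.12 and 3.03 with a log2 ratio of 0.51 (0.28 to 0.75), and Phlda3, an inhibitor of Akt, at 1.13 and 1.55 with a ratio of 0.45 (0.13 to 0.77). Within the Ccl21a class the ratio of Phlda3 was -0.06 (-0.49 to 0.38) and that of Perp 0.57 (0.23 to 0.92), and within the Aire class they were 0.20 (-0.51 to 0.91) and -0.42 (-0.94 to 0.11). Bax and Rps27l, the most abundant of the list with Perp, were at 2.65 and 2.91 and at 3.33 and 3.61, with ranges that included 0. Mdm2 was at 0.61 and 0.53.

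Of 16 genes of Aire-expressing medullary cells 14 passed and 0 were beyond 1.5-fold, with a median log2 ratio of -0.14. The range lay below 0 for 5 of the 14 and above 0 for 1, beside 324 and 326 of 6705 over all genes. Fezf2, which drives antigens that do not need Aire, was at 4.35 in the control and 3.18 in the irradiated members, with a log2 ratio of -0.45 (-0.64 to -0.27). It was -0.02 in nondividing and -0.12 in G2/M cells, and within the members -0.09 (-0.32 to 0.15) in the Aire class, -0.39 (-0.86 to 0.09) in the Ccl21a class and -0.77 (-1.22 to -0.32) in cells with neither trait. Cd80 was at 0.26 and 0.22, and Tnfrsf11a, the RANK receptor, at 1.16 and 1.22, with ranges that included 0. The class II genes H2-Aa and H2-Ab1 were at 48.4 and 49.6 and at 48.1 and 49.4. Of 15 genes of the Ccl21a type 13 passed, of which 5 were 1.5-fold higher and 0 were lower, beside 3.24% and 2.21% over all genes, with a median log2 ratio of 0.46. The summed list was at 0.53 (0.48 to 0.57), but at 0.23 with an Mcm sum of at least 4 and 0.08 (0.03 to 0.13) with at least 8. The 5 were Krt5, Krt14, Cldn4, Ccl11 and Cxcl14, of which Cldn4 and Cxcl14 had only 26 and 22 control UMIs. Ccl11 was at 0.73 and 3.91, a log2 ratio of 2.42 (2.10 to 2.75), with 66.9% of the control UMIs in 1 cell, and within the Ccl21a class at 3.20 and 8.87, a ratio of 1.47 (1.14 to 1.80). Itga6, the integrin of basal epithelium, was at 2.66 and 3.66 with a ratio of 0.46 (0.25 to 0.66). Apoe, a lipid carrier, was at 8.17 and 8.02 over all members, but lower in the irradiated library within the Ccl21a class, at 26.0 and 16.2 with a ratio of -0.68 (-0.82 to -0.53), and in the Aire class, with a ratio of -0.81 (-1.31 to -0.31). Of 14 genes of cells past the Aire stage only 3 passed, of which 1, Ccl20, was 1.5-fold higher with nearly all its UMIs in 1 cell of each library, and 0 were lower. Tnfaip2 was at 0.34 and 0.36. Spib was at 1.52 and 1.17, a ratio of -0.38 (-0.69 to -0.07).

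Immediate-early and heat-shock genes were lower in the irradiated members. Of 17 such genes 16 passed, of which 0 were 1.5-fold higher and 10 were lower, and all 16 ranges lay below 0, beside 2.21% lower genes and 324 of 6705 such ranges over all genes. The median log2 ratio was -0.63 in Mcm-high cells and -0.91 in nondividing cells. Fos was at 5.63 in the control and 3.61 in the irradiated members, a log2 ratio of -0.64 (-0.81 to -0.48), and Jun at 12.9 and 8.34, a ratio of -0.63 (-0.74 to -0.52). Atf3 was at 2.34 and 0.71, a ratio of -1.72 (-2.04 to -1.41), and Ier3 at 0.56 and 0.23, a ratio of -1.29. Jund was at 11.9 and 10.7, a ratio of -0.15. Hspa1a, a heat-shock chaperone, was at 12.9 and 9.69, a ratio of -0.41. Fos was lower in the irradiated library in the Ccl21a class, with a ratio of -1.06, and in the Aire class, with a ratio of -0.93, while in cells with neither trait its ratio was -0.24 (-0.63 to 0.15). These genes are known to respond to tissue digestion, and the libraries came from separate cell suspensions, so that handling and irradiation cannot be told apart here.

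Of 14 interferon-response genes 13 passed, of which 2 were 1.5-fold higher and 0 lower, beside 3.24% and 2.21% over all genes. For 6 of them the range lay above 0 and for 1 below, beside 326 and 324 of 6705. The 2 were Irf7, an amplifier of the interferon response, at 0.33 and 0.69 with a log2 ratio of 1.05 (0.50 to 1.61), and Ifi27l2a at 5.67 and 8.78 with a ratio of 0.63 (0.49 to 0.77). Isg15 was at 0.89 and 1.33 with a ratio of 0.57 (0.22 to 0.93), but within the Ccl21a class at 3.30 and 2.61 with a ratio of -0.34 (-0.73 to 0.06). Usp18, which dampens the response, was at 2.87 and 3.11 with a range that included 0. Cxcl10, the most abundant, was at 13.2 and 12.1 with a ratio of -0.12 (-0.22 to -0.02). The 2 genes were highest in the Ccl21a class. Ifi27l2a was at 15.5 and 15.4 there and at 1.76 and 1.96 in the Aire class, with ratios of -0.01 and 0.15 within them, and at 4.03 and 6.92 in cells with neither trait, a ratio of 0.78 (0.42 to 1.15). Irf7 was at 1.21 and 1.38 in that class, a ratio of 0.18 (-0.43 to 0.80), and at 0.0339 and 0.102 in the Aire class. The summed list, at 0.21, was -0.11 with an Mcm sum of at least 4, -0.0083 with at least 8 and 0.23 with Mki67 and Top2a under 2.

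**Figure D5:**
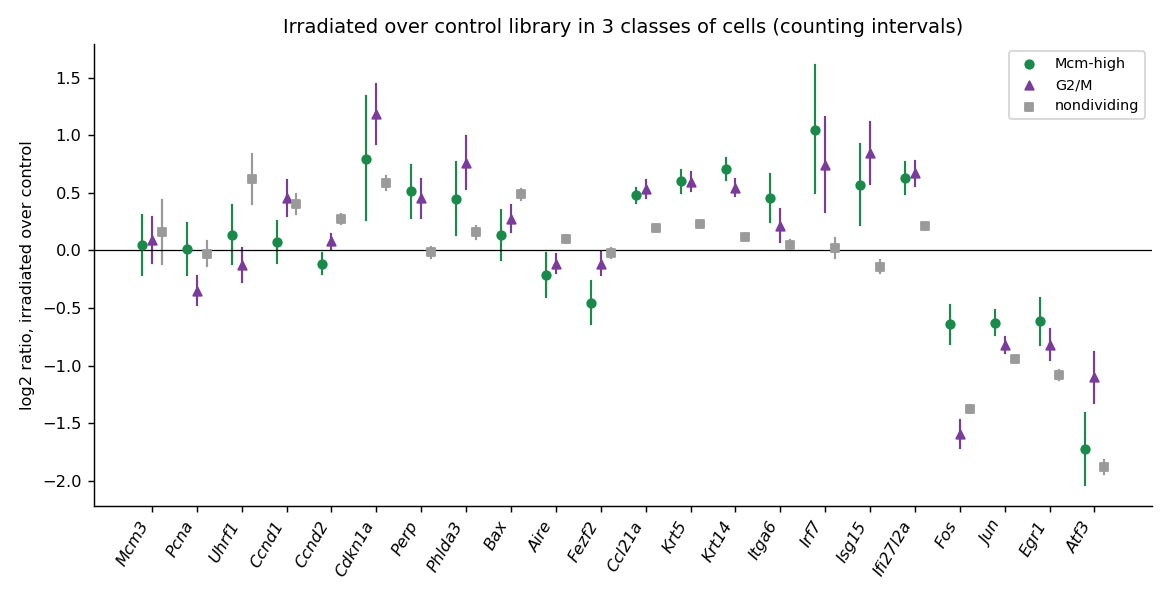
Log2 ratios of irradiated over control library (vertical axis) for 22 genes in Mcm-high (circles), G2/M (triangles) and nondividing cells (squares), from summed UMIs per 10000, with lines from the opposite ends of both Poisson intervals. Pcna lies at 0.01 in Mcm-high cells, Krt5 and Krt14 at 0.60 and 0.71, and Fos, Jun, Egr1 and Atf3 lie below 0 in every class.

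The 10 genes with the highest ratio of Mcm-high over G2/M cells in both libraries were Tagln, Myl9, Igfbp5, Mgp, Ccl21a, Igfbp4, Gpx3, Gm8113, Sult5a1 and Id1. Tagln, an actin-binding protein, was at 3.94 and 6.23 UMIs per 10000 in control and irradiated members, 0.72 and 1.16 in G2/M cells and 5.43 and 5.42 in nondividing cells. Among members it was at 12.9 and 12.3 in the Ccl21a class and 0.813 and 0.342 in the Aire class. Ccl21a was at 25.4 and 35.4 in members, 5.99 and 8.65 in G2/M cells and 37.7 and 43.1 in nondividing cells. Id1, a target of BMP signalling, was at 1.38 and 2.66 in members, 0.36 and 0.75 in G2/M cells and 1.69 and 2.46 in nondividing cells, with a log2 ratio of 0.94 (0.67 to 1.22) between the libraries in members. Igfbp5 went the other way between libraries, at 7.62 and 5.19, a ratio of -0.55 (-0.70 to -0.41). The 10 with the lowest ratio over G2/M cells were Spp1, Trbc1, Ube2c, Nusap1, Plk1, Depdc1a, Gas2l3, Kif14, Hist1h2ae and Kif11. Most of these serve the spindle and the exit from mitosis, while Spp1 and the T cell gene Trbc1 had at most 3 UMIs over all members of a library.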

How the data were processed

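The authors deposited unnormalized UMI counts per gene and barcode, from fastp-trimmed reads aligned to mm10 with Cell Ranger (version 5.0.1 in the file headers, 5.1 in the labels). The labels give an age of 9 weeks and, in the protocol, 4 weeks, and name version 2 of the chemistry, whereas the study's methods name version 3. Members, lists and limits were chosen with earlier results of these data known. A gene entered the count of detected genes when at least 5 barcodes of its library held it. Levels are summed UMIs of a class per 10000 summed UMIs. Log2 ratios use 0.5 added UMIs. Thinning drew 4000 UMIs per cell without replacement. The computation was tested on simulated counts. Genes were named by a rule, which took the genes of the selection, Pcna and 9 fixed genes, the 3 most abundant and 2 most changed members of each list, and the extremes of each comparison (5 or 10 genes). Apoe, Cdc6, Cldn4, Egr1, Fos, Hist1h1b, Isg15, Itga6, Mdm2, Phlda3, Rrm2, Tyms, Uhrf1 and the genes printed only within the Aire and Ccl21a classes or as at 0 were chosen after their values were seen. Python 3.11.15, numpy 2.4.6, scipy 1.17.1, pandas 2.3.3 and matplotlib 3.10.9 were used. Alternatives changed the limits, the minimum of UMIs, the scaling and the summary over cells.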

Additional observations from a re-analysis of the deposited data

Results flagged for a closer look

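Among 248 genes of the lists with at least 100 UMIs in Mcm-high cells, 10 had ranges of the irradiated over control ratio that lay on opposite sides of 0 in Mcm-high and in nondividing cells. The difference between the classes was not tested. No such count was made over all genes, so whether 10 of 248 is many is not known. Over all 6705 genes, 326 ranges in Mcm-high cells lay above 0 and 324 below. Higher in the irradiated Mcm-high cells and lower in the irradiated nondividing cells were Krt18, with log2 ratios of 0.33 and -0.11, Isg15, with 0.57 and -0.14, Cldn4, with 0.98 and -0.24, Cxcl14, with 1.57 and -0.20, and Ccl20, with 1.45 and -0.16. For Ccl20 a single cell held 90.2% of the control and 95% of the irradiated UMIs of the members. Lower in Mcm-high and higher in nondividing cells were Aire, with -0.21 and 0.10, Ccnd2, with -0.11 and 0.27, Npm1, with -0.18 and 0.15, Eif4a1, with -0.15 and 0.12, and Hspe1, with -0.15 and 0.06. For Ccnd2 the ratio in Mcm-high cells was -0.02 without the top cell of each library, and it was 0.07 (-0.17 to 0.31) within the Ccl21a class and 0.23 (0.02 to 0.44) in cells with neither trait. Several of these directions were not particular to Mcm-high cells. In G2/M cells Aire, Npm1, Hspe1 and Isg15 had the same direction, with ratios of -0.12, -0.13, -0.17 and 0.84 and ranges that excluded 0. Cldn4, with -0.44, and Ccnd2, with 0.08, lay on the other side there, also with ranges that excluded 0. The ranges of the remaining flagged genes in G2/M cells included 0.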

How the results depend on the processing

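The share of Mcm-high cells was higher in the irradiated library under all alternatives run, with log2 ratios from 0.49 to 0.81. Counts of genes past the fold moved with the setting. They were 460 higher and 384 lower with a minimum of 50 UMIs, 34 and 15 with 500 UMIs, and 39 and 26 at 2-fold. Higher and lower genes numbered 129 and 202 with an Mcm sum of at least 4, 113 and 125 with at least 8, and 137 and 153 without the 5% of kept cells with the most UMIs, so that lower genes were the more numerous there, unlike the 217 and 148 reported. Chosen after seeing the data, the setting without the highest cell of each library left 98 lower genes. With an Mcm sum of at least 8, the log2 ratio of Aire changed sign to 0.10 (-0.13 to 0.33) and that of Ccl21a to -0.033 (-0.11 to 0.05), with ranges that included 0. The summed chromatin list, at -0.06, changed sign to 0.090 (0.04 to 0.14) with a sum of at least 4, 0.028 with at least 8, 0.035 with Mki67 and Top2a under 2, and 0.053 without the deepest cells, the last 3 with ranges that included 0. The summed interferon list, at 0.21, changed sign to -0.11 (-0.16 to -0.06) with a sum of at least 4 and -0.0083 (-0.08 to 0.06) with at least 8. The cause was not tested. The share of members with an Aire UMI was 67.5% and 53.1% without thinning, and 31.3% in the control and 28.9% in the irradiated members at 2000 UMIs, where the log2 ratio was -0.12. Without the 2 members per library with at least 5 thymocyte UMIs per 10000, 198 genes were higher and 165 lower. The early-stress list stayed between -0.69 and -0.51, Krt5 between 0.35 and 0.61 and Krt14 between 0.41 and 0.72. Limits of 5 and 20 Ccl21a UMIs, also chosen afterwards, gave log2 ratios of 0.54 (-0.06 to 1.201) and 0.58 (-0.23 to 1.48) for the Ccl21a class. Leaving out barcodes found in both libraries, chosen afterwards as well, moved no value by more than their intervals. No paired analysis was possible because each condition has 1 library. At the depth of these members, genes under 100 UMIs were left out of the counts unless a lower minimum is named.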
